A study of Mus musculus with 65 samples.

Results

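Mouse bone marrow derived dendritic cells that lacked MyD88 were compared with wild-type cells after 2 h of lipopolysaccharide (LPS), the outer membrane lipid of Gram-negative bacteria. The comparison holds 8 of the series' 65 RNA libraries, chosen by their titles: 3 of MyD88-deficient cells and 5 of wild-type cells. It concerns the RNA levels at 2 h and not the change that LPS made. Both groups were C57BL/6 cells labelled wild type for Trif, Ifnar and Suv39h1, and both received LPS at 100 ng/mL, so the groups differ by label in MyD88 alone. The labels call the deficient cells MyD88KO and give no description of the allele. Polyadenylated RNA was sequenced, and counts per gene and per copy of each repeat element were deposited.

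The title numbers divide the libraries into a first and a second set. All 3 deficient libraries, numbered 19, 23 and 30, and the wild-type libraries 3 and 13 belong to the first set. The wild-type libraries 36, 37 and 38 belong to the second set, which holds no deficient library, so that a difference between the sets and a difference between the genotypes can be told apart only against libraries 3 and 13. The labels number 3 cohorts: the deficient libraries are of cohorts 1, 2 and 3, libraries 3 and 36 of cohort 1, library 37 of cohort 2, and libraries 13 and 38 of cohort 3. The labels do not say that libraries of 1 group came from separate animals. In the main fit the p-values measure the spread within groups over all 35 dendritic cell libraries of the experiment, not over these 8 alone. That spread may be partly technical, and where wild-type libraries of 1 cohort share cells the p-values are too small. Gene counts ran from 46035727 to 54354876 in the deficient and from 41509579 to 65248493 in the wild-type libraries. Xist RNA, which coats the silenced X chromosome of female cells, stood at 580 to 1372 CPM in cohorts 1 and 2 and at most at 0.0255 CPM in cohort 3 of both genotypes. No pair of libraries of 1 group agreed within sampling noise: the lowest chi-square per gene of 13 pairs was 10.5. That pair was wild-type libraries 36 and 37, labelled cohorts 1 and 2, and the other pairs ran from 58.6 to 388. These 2 libraries were thus far more alike than any others, and the labels do not say whether they share cells.

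LPS is handed by CD14 to the receptor complex of TLR4 and MD-2 (encoded by Ly96). At the cell surface TLR4 signals through the adaptor MyD88, the IRAK kinases and TRAF6 to NF-kB and the MAP kinases, which drive inflammatory cytokine and chemokine genes. From endosomes TLR4 signals through the adaptor TRIF (encoded by Ticam1) to IRF3 and the gene of interferon beta, and secreted interferon then acts on its receptor IFNAR to induce the interferon-stimulated genes. Dendritic cells also raise costimulatory molecules after LPS, which lets them activate T cells.

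Levels are given as counts per 1e6 gene counts after TMM scaling (CPM), in the order of cohorts 1, 2 and 3 for deficient libraries, libraries 3 and 13 for the first wild-type set and libraries 36, 37 and 38 for the second. Differences are log2 values, deficient minus wild type, with their SE from edgeR's quasi-likelihood test, which was fitted over the 35 dendritic cell libraries of the same experiment, and a gene passed at a Benjamini-Hochberg adjusted p below 0.05 over all genes tested. In bulk RNA, fewer cells that express a gene and less RNA per cell cannot be told apart.

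Myd88 itself stood at 115, 93.7 and 95.2 CPM in the deficient libraries, at 279 and 269 CPM in the first wild-type set and at 319, 324 and 275 CPM in the second. Every deficient library was below every wild-type library, yet none was near 0, and the labels do not say which part of the gene was removed. The difference was -1.53 ± 0.09 (SE; adjusted p = 9.6e-13), and it was -1.44 against the first set alone (adjusted p = 1.2e-09). Ticam1 stood at 26.1, 29.3 and 43.6 CPM against 25 to 40.8 CPM in wild-type libraries, a difference of -0.03 ± 0.53 (adjusted p = 0.98). Tlr4 (0.57 ± 0.29) and Ly96 (-0.52 ± 0.20) did not pass either. Cd14 was lower, with 288, 343 and 212 CPM against 893, 617, 1149.6, 1059.9 and 596 CPM, a difference of -1.62 ± 0.27 (adjusted p = 0.00022). Of the 29 genes of a list of TLR4 signalling, 6 fell and 1 rose, with a median of -0.12, beside a median of 0.03 over all genes. Only Myd88 and Cd14 of these passed against the first set, and without deficient library 23 just 2 fell. Those that fell included Ikbke, the kinase IKK-epsilon (-1.50 ± 0.50), and Peli1, a ubiquitin ligase that acts on IRAK kinases (-0.62 ± 0.15). The riser was Tab1, a partner of the kinase TAK1 (0.51 ± 0.11).

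Over all 14475 genes tested, 1017 (7.03%) were lower and 839 (5.80%) higher in the deficient cells. These shares are the background for the number that fell or rose in each gene list. The counts over all genes depended on which and how many wild-type libraries entered. Against the 2 libraries of the first set alone, 216 of 14696 genes (1.47%) were lower and 53 (0.361%) higher. With only the 8 libraries in the fit, so that the spread was estimated from them alone, 93 of 13465 genes (0.691%) were lower and 17 (0.126%) higher. Of the 1017 lower and 839 higher genes, 202 and 46 also passed against the first set, and all 1017 and 839 kept their sign there. That comparison shares its 5 libraries with the whole. The balance between the directions depended on the scaling: without TMM, 2967 genes were higher and 653 lower, and the median over all genes moved from 0.03 to 0.24. The TMM factors were 1.04 to 1.07 in the deficient and 0.859 to 0.959 in the wild-type libraries. In 994 genes (6.87%) all 3 deficient libraries lay below all 5 wild-type ones, and in 992 (6.85%) they lay above. Of the genes called lower in the whole fit, 74 were also called against the first set and in the fit of 8 libraries. Among them were Cxcl1, Cxcl2, Cxcl5, Il6, Il1a, Il1b, Il23a, Tnf, Csf2, Csf3, Ptgs2, Nfkbiz, Socs3 and Zc3h12a. Of 158 genes that were named by rule and passed, 53 passed against the first set and 34 in the fit of the 8 libraries.

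Most inflammatory cytokine genes were lower without MyD88. Of 25 listed cytokine genes, 18 fell and 1 rose in the deficient cells, with a median difference of -2.09. Against the first wild-type set 14 fell, with a median of -1.98, and leaving out 1 library at a time left 16 to 20. In 18 of the 25 all deficient libraries lay below all wild-type ones, and in 1 they lay above.

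Il6, a cytokine of fever and of the acute phase response, stood at 30.8, 25.3 and 51.8 CPM in the deficient cells, at 538 and 538 CPM in the first wild-type set and at 1171, 1006 and 378 CPM in the second. The highest deficient library was far below the lowest wild-type library, and the wild-type libraries themselves ranged widely. The difference was -4.34 ± 0.51 (adjusted p = 3.3e-06), or -3.90 against the first set.

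Il1b, the precursor of interleukin-1 beta, stood at 309.8, 280.1 and 639 CPM against 3921, 3726, 4780.5, 4065 and 2866 CPM (-3.24 ± 0.38, adjusted p = 3.3e-06). Il23a, a subunit of interleukin-23, stood at 1.54, 1.44 and 1.49 CPM against 32.6, 30.9, 107, 81.1 and 30.1 CPM (-5.24 ± 0.62, adjusted p = 3.3e-06). The deficient libraries hardly differed among themselves in Il23a, while libraries 36 and 37 were well above the other wild-type libraries. Tnf, named here after its values were seen, stood at 275, 215 and 175 CPM against 1685, 1577, 2951, 2686 and 1246 CPM (-3.19 ± 0.48, adjusted p = 8.2e-05).

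Csf3, the granulocyte growth factor G-CSF, was close to the detection limit without MyD88: 12 counts in the 3 deficient libraries together, or 0.0706, 0.0746 and 0.0814 CPM, against 8.02, 3.11, 6.13, 4.67 and 2.22 CPM (-5.96 ± 0.76, adjusted p = 1.6e-05). Csf2, which encodes GM-CSF, had 9 counts in the deficient libraries and 0.764 to 8.07 CPM in the wild-type libraries (-6.22 ± 1.06, adjusted p = 0.00031). Il12a, a subunit of interleukin-12, had 3 counts in all deficient libraries together against 0.127 to 5.89 CPM, too few for a fold. Tnfsf15, a TNF family ligand, stood at 93.7, 70.9 and 35.7 CPM against 559 to 2575 CPM (-4.39 ± 0.70). Il10, an anti-inflammatory cytokine named after its values were seen, was also lower (-3.93 ± 0.74, adjusted p = 0.00082).

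Among the cytokines that did not pass, Il1rn, the interleukin-1 receptor antagonist, stood at 460.5, 691 and 314 CPM against 661 to 2128 CPM, and the groups overlapped (-1.38 ± 0.49, adjusted p = 0.060). Vegfa, a growth factor of blood vessels, had nearly the same mean in both groups (84 and 83.6 CPM). The cytokine that rose was Tgfb1, at 251, 262 and 267 CPM against 171 to 207 CPM (0.45 ± 0.13, adjusted p = 0.021). With the first set alone Tgfb1 did not pass (adjusted p = 0.31).

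The list of neutrophil-type CXC chemokines, most of which draw neutrophils through CXCR2, had the largest median difference of any list. Of its 6 genes, Pf4 included, 5 fell, with a median of -3.12, and 3 fell against the first set. Cxcl1 stood at 1.38, 2.55 and 0.671 CPM in the deficient libraries, at 237 and 239.7 CPM in the first wild-type set and at 497, 316 and 188 CPM in the second. That is a 192-fold lower mean (-7.58 ± 0.54, adjusted p = 8.1e-11), and the difference against the first set was -7.27. Cxcl2 fell less, from a wild-type range of 814 to 2206 CPM to 99.1, 118 and 183 CPM (-3.45 ± 0.50, adjusted p = 5.4e-05). Cxcl5 stood at 0.353, 0.485 and 0.814 CPM against 8.71 to 28 CPM (-4.95 ± 0.61, adjusted p = 5.6e-06). Cxcl3 (-2.80 ± 0.66) and Ppbp (-1.27 ± 0.39) passed over all libraries but not against the first set (adjusted p = 0.077 and 0.27). Pf4, the platelet chemokine, stood at 60.4, 56.6 and 19 CPM against 41.2 to 164 CPM and did not pass (adjusted p = 0.22). The 6 genes lie close together on chromosome 5, with Cxcl1 at 90891241 to 90893115 of mm10.

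The promoters of Cxcl1 and Il6 are shown because these genes had the largest falls among those of the chemokine, cytokine and enzyme lists whose promoter holds a match to the NF-kB motif. The sequences are RefSeq's for GRCm38.p6, from 250 bases before to 50 after the start of the gene, 5′ to 3′, with the matches in capitals. Cxcl1 lies at chr5:90890995-90891294 and Il6 at chr5:30012864-30013163, both on the plus strand. In Cxcl1 2 overlapping matches, 1 on each strand, begin 71 bases before the start of the gene, and in Il6 1 match begins 44 bases before it.
Cxcl1: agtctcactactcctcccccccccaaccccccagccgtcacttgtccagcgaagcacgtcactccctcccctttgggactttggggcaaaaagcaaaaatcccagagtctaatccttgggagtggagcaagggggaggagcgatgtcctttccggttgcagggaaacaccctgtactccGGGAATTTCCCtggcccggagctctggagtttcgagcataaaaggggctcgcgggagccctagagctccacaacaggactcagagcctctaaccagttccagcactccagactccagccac
Il6: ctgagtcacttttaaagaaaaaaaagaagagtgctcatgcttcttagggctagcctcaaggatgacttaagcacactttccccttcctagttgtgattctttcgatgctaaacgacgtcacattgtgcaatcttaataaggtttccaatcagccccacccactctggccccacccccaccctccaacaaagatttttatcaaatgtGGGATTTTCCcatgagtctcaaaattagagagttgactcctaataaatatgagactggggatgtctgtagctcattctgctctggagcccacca
Promoters were searched on both strands. Of 27025 genes with a promoter in the table, 5.14% held the NF-kB motif, and of the 11342 tested genes with a promoter 6.38% did. Of the genes called lower 802 had a promoter there, and 74 of these (9.23%) held it, against 38 of 695 (5.47%) of the genes called higher. It stood in 3 of 5 CXC chemokine genes of the list and in 4 of 18 cytokine genes with a promoter. A match describes the letters only.

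**Figure D1:**
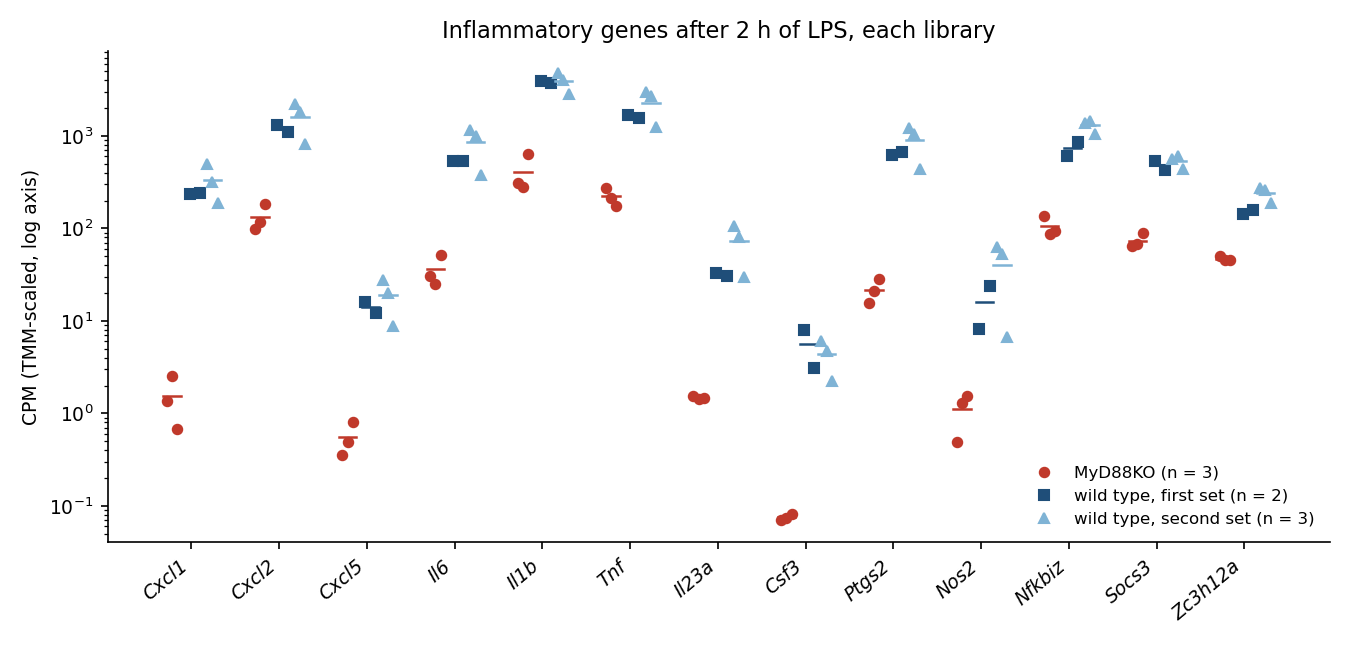
Level of 13 inflammatory and feedback genes in each library, in CPM on a log axis. Red circles are the 3 deficient libraries, dark blue squares the first and light blue triangles the second set of wild-type libraries, and short lines are group means; in all 13 genes every deficient library lies below every wild-type library.

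Of the CC chemokines, which draw monocytes and T cells, 6 of 13 fell, with a median of -1.45. Ccl3 stood at 63.2, 52.4 and 30.6 CPM against 795, 537, 1559, 1432 and 375 CPM (-4.27 ± 0.67, adjusted p = 0.00012). It was the only member of this list that also passed against the first set. Ccl4 (-3.02 ± 0.73), Ccl7 (-2.35 ± 0.70), Ccl2 (-2.20 ± 0.66) and Ccl22 (-1.15 ± 0.36) passed over all libraries. Ccl5, which did not pass, stood at 417, 167 and 340.3 CPM against 357 to 1264 CPM, so that library 3 was below 1 deficient library. The count of this list rested on single libraries: without deficient library 23 only 2 members fell, and without wild-type library 3 there were 7.

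Enzymes that make inflammatory mediators were split. Of 16 listed genes 5 fell and 1 rose, with a median of -0.97. Ptgs2, Nos2 and Gch1, an enzyme of cofactor synthesis for nitric oxide synthase, also passed against the first set. Ptgs2, the inducible cyclooxygenase COX-2, stood at 15.5, 21.3 and 28.1 CPM against 629.9, 664, 1224, 1039 and 434 CPM (-5.21 ± 0.56, adjusted p = 6.7e-07). Nos2, the inducible nitric oxide synthase, stood at 0.494, 1.29 and 1.55 CPM against 8.12, 23.6, 63.1, 52.3 and 6.72 CPM (-4.80 ± 0.94, adjusted p = 0.0011). The wild-type libraries of Nos2 spread more than those of Ptgs2, yet none overlapped the deficient ones. Ptgs1, the constitutive cyclooxygenase, was higher (0.85 ± 0.27, adjusted p = 0.036). Acod1, which makes itaconate, was abundant in both groups: 1418, 1609 and 451 CPM without MyD88 and 1044 to 3289 CPM in wild-type libraries (adjusted p = 0.41).

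Of the NF-kB subunits and their inhibitors, 6 of 11 fell, with a median of -0.42. Against the first set 2 fell, and leaving out 1 library at a time left between 2 (without deficient library 19) and 6. The largest difference was in Nfkbiz, an atypical IkB protein that works in the nucleus with NF-kB p50 on a subset of its targets, Il6 among them. It stood at 137, 86.4 and 93.5 CPM in the deficient libraries, at 600.5 and 863 CPM in the first wild-type set and at 1380.4, 1466 and 1059 CPM in the second (-3.35 ± 0.33, adjusted p = 1.6e-07). Nfkbia, the classical inhibitor IkB-alpha, differed less (-0.93 ± 0.17, adjusted p = 0.00062), with 846, 567 and 849 CPM against 1162 to 1610.4 CPM. Rel (-0.71 ± 0.22), Nfkb2 (-0.50 ± 0.16) and Nfkb1 (-0.42 ± 0.13) were lower by smaller amounts. Rela, the p65 subunit, was at 159.7, 145 and 151 CPM against 144 to 172 CPM and did not pass (adjusted p = 0.45).

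Among 24 listed genes that brake the response, 14 fell and 2 rose, with a median of -0.72, and 8 fell against the first set. Socs3, an inhibitor of cytokine receptor signalling, stood at 64, 68.1 and 88.8 CPM against 534, 429, 562, 607 and 442 CPM (-2.81 ± 0.30, adjusted p = 6.4e-07). Zc3h12a, the RNase Regnase-1 that degrades cytokine mRNA, stood at 50.04, 45.5 and 45.96 CPM against 143, 157, 270.5, 259 and 189 CPM (-2.11 ± 0.19, adjusted p = 1.6e-08). Both were tight within the deficient group and did not overlap the wild-type libraries. Dusp2, a MAP kinase phosphatase (-2.0 ± 0.48), Usp18, which removes ISG15 from proteins (-1.76 ± 0.27), and Socs1 (-1.75 ± 0.30) were also lower. Zfp36l2, an mRNA decay factor, went the other way, with 40.4, 61 and 37.5 CPM against 19.2 to 21.8 CPM (1.16 ± 0.20, adjusted p = 0.00045). Cyld, a deubiquitinase, was higher by 0.38 ± 0.11.

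Of 21 immediate-early and AP-1 factors 9 fell and 1 rose, with a median of -0.35. Nr4a1 (-1.46 ± 0.32), Atf3 (-1.45 ± 0.32), Fos (-1.15 ± 0.31) and Egr1 (-1.09 ± 0.33) were lower. Myc was higher, at 16, 19.8 and 20.2 CPM against 7.14 to 8.82 CPM (1.23 ± 0.25, adjusted p = 0.0016). With the first set alone 1 gene of this list fell, and Myc had an adjusted p of 0.067 there. Without deficient library 23, 3 genes fell.

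**Figure D2:**
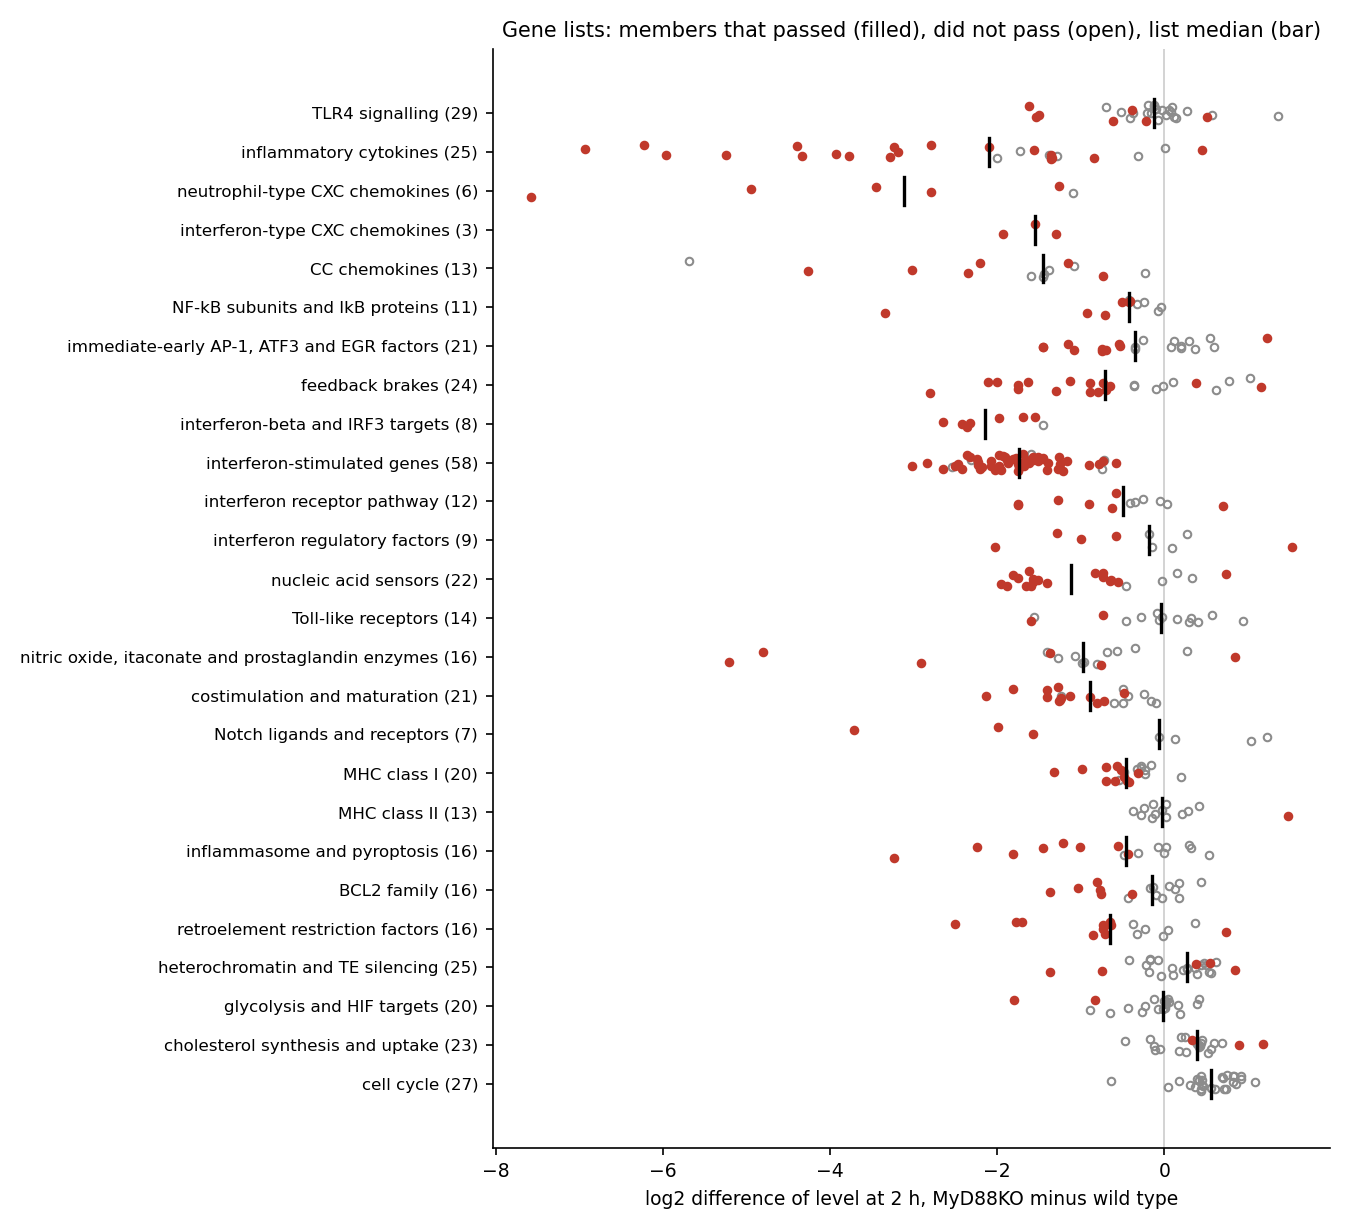
Log2 difference, deficient minus wild type, of every tested member of each gene list at 2 h; filled points passed the test and the bar is the list's median. The medians of the neutrophil-type CXC chemokines, the cytokines and the interferon-stimulated genes lie at -3.12, -2.09 and -1.74, and that of the MHC class II list at -0.03.

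Genes of the interferon arm were lower as well. Ifnb1, the gene of interferon beta, was named after its values were seen. It stood at 3.67, 2.70 and 3.99 CPM in the deficient libraries, at 6.35 and 11.6 CPM in the first wild-type set and at 14.7, 13.3 and 9.88 CPM in the second. The groups did not overlap, with a difference of -1.69 ± 0.47 (adjusted p = 0.017), and against the first set the difference was -1.38 and did not pass (adjusted p = 0.14). Of 8 genes listed as interferon beta and IRF3 targets, 7 fell, with a median of -2.15, and 2 fell against the first set. This list shares 5 genes with the list of interferon-stimulated genes.

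Of 58 tested interferon-stimulated genes 53 fell and none rose, with a median of -1.74. All 58 differences were negative, and in 46 the groups did not overlap. In the comparison with the first set 19 fell, with a median of -1.17, and in the fit of the 8 libraries 1 fell. The wild-type libraries differed strongly from each other: the summed level of the 58 genes was 8427 CPM in library 3, 16674 in library 13, 27004 in library 36, 28776 in library 37 and 12446 in library 38. In the deficient libraries the sums were 6434, 4663 and 5208 CPM. Library 3, the lowest wild-type library, had 47 of the 58 genes above all deficient libraries, library 38 had 53, and the other wild-type libraries had all 58. Leaving out 1 library at a time gave between 43 (without deficient library 23) and 57 genes (without wild-type library 3).

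Ifit1, which binds viral RNA that lacks the methylation of the host cap, stood at 224, 149 and 227 CPM against 394, 948, 1452, 1608 and 596 CPM (-2.32 ± 0.54, adjusted p = 0.0045). Its difference from the first set was -1.75 (adjusted p = 0.098). Ifit2 stood at 277, 149 and 183 CPM against 456, 1155, 1812, 2110.1 and 869 CPM (-2.65 ± 0.53, adjusted p = 0.0014) and also passed against the first set (-1.99, adjusted p = 0.037). Both genes were lowest in library 3 among the wild-type libraries, and both were still above every deficient library there. Rsad2, the antiviral enzyme viperin, did overlap: 325, 251 and 190.0 CPM against 304, 905, 2413, 2597 and 628 CPM (-2.42 ± 0.69, adjusted p = 0.019), with library 3 below deficient library 19. From the first set alone Rsad2 did not differ past the threshold (-1.24, adjusted p = 0.32). Mx1 overlapped in the same way, with 913, 409 and 534 CPM against 745 to 3246 CPM (-1.78 ± 0.35). Mx2 (-2.50 ± 0.39), Ifi44 (-3.02 ± 0.62), Gbp5 (-2.24 ± 0.44), Irf7 (-2.03 ± 0.42) and Isg15 (-1.98 ± 0.43) were lower without overlap.

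Cxcl10, a chemokine induced by interferon, stood at 702, 519 and 609 CPM against 1089, 2021, 2259.5, 2334 and 1254 CPM (-1.55 ± 0.37, adjusted p = 0.0061). All 3 chemokines of this kind fell, and Cxcl11 (-1.93 ± 0.40) alone also passed against the first set. Of 12 genes of the interferon receptor pathway, 6 fell and 1 rose, and 3 fell against the first set. Irf9 stood at 127, 103 and 134 CPM against 152 to 196 CPM (-0.58 ± 0.11). The receptor chain Ifnar1 did not pass (0.03 ± 0.10), and Ifngr1, a receptor chain of interferon gamma, was higher (0.70 ± 0.18). Among 9 interferon regulatory factors 4 fell, including Irf1 (-1.28 ± 0.27) and Irf8 (-0.99 ± 0.26), and Irf2bp2, a corepressor of IRF2, rose. Against the first set just Irf9 of the list fell, and in the fit of the 8 libraries 0 passed. Irf3, which TRIF activates by phosphorylation, was at 51.5, 49.6 and 60.0 CPM against 47.6 to 54.6 CPM (0.09 ± 0.11, adjusted p = 0.64).

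The promoters of Rsad2 and Ifit1 are shown as those of the most abundant interferon-stimulated genes that hold a match to the interferon response motif GAAANNGAA. Rsad2 lies at chr12:26456403-26456702 on the minus strand, and its match is on the strand opposite to the gene, 119 bases before the start. Ifit1 lies at chr19:34640639-34640938 on the plus strand, with 2 marked matches on the opposite strand, the first of these 103 bases before the start. A further match on that strand begins just upstream, overlaps the first marked one and is in capitals only in part. The source, build, ends and capitals are as for Cxcl1.
Rsad2: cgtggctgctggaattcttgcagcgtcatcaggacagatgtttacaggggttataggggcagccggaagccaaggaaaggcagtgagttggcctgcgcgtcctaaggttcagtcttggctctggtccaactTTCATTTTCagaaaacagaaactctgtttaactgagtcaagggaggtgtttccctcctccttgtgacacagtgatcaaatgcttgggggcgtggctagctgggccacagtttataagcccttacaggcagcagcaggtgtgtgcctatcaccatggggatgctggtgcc
Ifit1: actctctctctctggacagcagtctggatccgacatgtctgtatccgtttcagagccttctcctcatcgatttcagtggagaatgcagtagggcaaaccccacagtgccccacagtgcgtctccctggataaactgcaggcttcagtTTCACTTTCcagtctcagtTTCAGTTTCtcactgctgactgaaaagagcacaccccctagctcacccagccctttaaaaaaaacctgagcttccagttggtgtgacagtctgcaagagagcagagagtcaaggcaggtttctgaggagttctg
This motif stood in 28 of 45 interferon-stimulated genes with a promoter in the table (62.2%), beside 9.76% of all genes with a promoter and 8.89% of the tested genes with one. Of the genes called lower 136 of 802 (16.96%) held it, and of those called higher 45 of 695 (6.47%). The motif and the NF-kB motif do not overlap in the promoters shown.

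**Figure D3:**
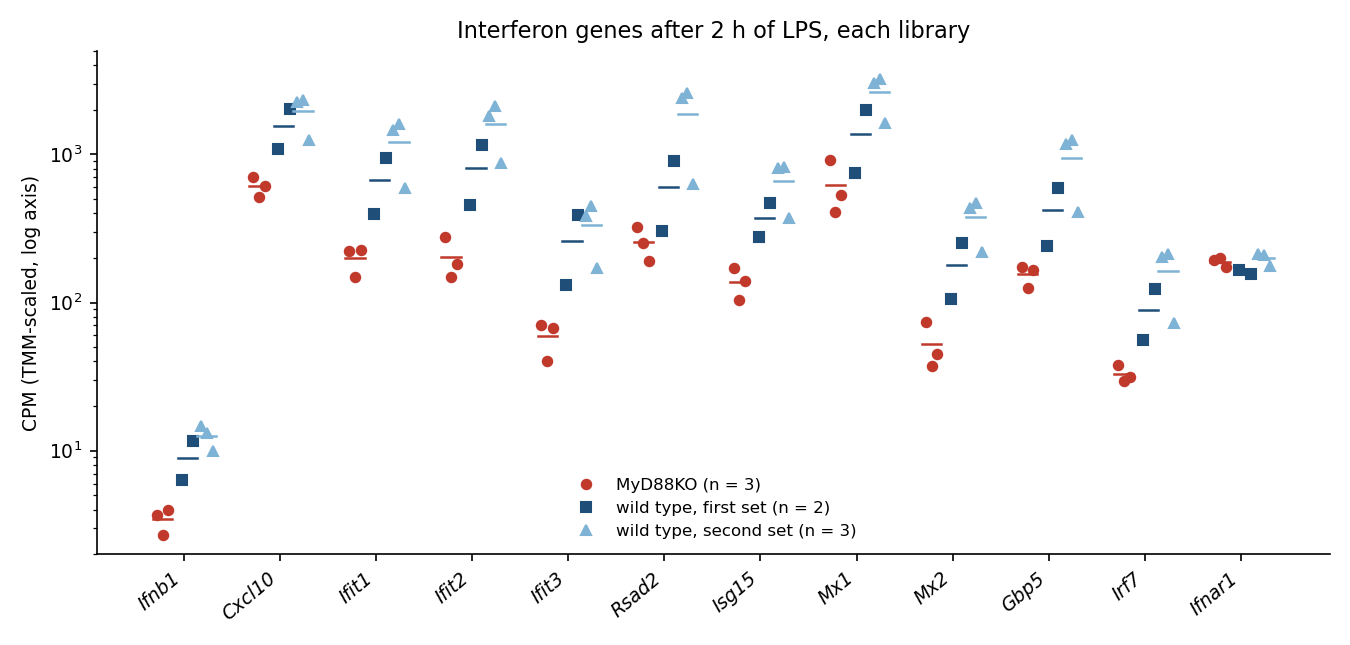
Level of 12 interferon pathway genes in each library, in CPM on a log axis, with symbols as in the plot of inflammatory genes. The wild-type squares and triangles spread widely, Rsad2 and Mx1 overlap between the groups, and Ifnar1 runs from 155 to 213 CPM over both groups.

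Of 22 nucleic acid sensors and their partners 17 fell and 1 rose, with a median of -1.12. Most are interferon-stimulated themselves. Eif2ak2, the RNA-activated kinase PKR, was lower by a difference of -1.40 ± 0.20 (adjusted p = 5.7e-05) and passed against the first set (adjusted p = 0.0095), where Ifi205 was the other member that did. Without deficient library 30, 10 genes of the list fell. Ifih1, the RNA sensor MDA5 (-1.75 ± 0.36), Ddx58, the RNA sensor RIG-I (-1.58 ± 0.31), and Zbp1 (-1.88 ± 0.48) passed over all libraries only. Of 14 Toll-like receptors 2 fell, beside 7.03% of all genes: the endosomal receptors Tlr3 (-1.60 ± 0.46) and Tlr9 (-0.74). Neither of them fell against the first set or without deficient library 30, and Tlr2 did not pass (-0.06 ± 0.30).

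Costimulation and maturation genes were lower in part. Of 21 listed, 13 fell, with a median of -0.88, and against the first set 1 did. Slamf1, a receptor of T cell contact, stood at 7.52, 4.38 and 7.65 CPM against 11.6, 30.5, 36.9, 36.8 and 27.3 CPM (-2.13 ± 0.40, adjusted p = 0.00084). Cd40, the receptor for T cell help, stood at 388, 185 and 393 CPM against 512, 842, 1025, 1089.9 and 802 CPM (-1.41 ± 0.30, adjusted p = 0.0024), with an adjusted p of 0.097 against the first set. Cd86, the ligand of CD28, did not pass (368, 292 and 371 CPM against 437 to 604 CPM, adjusted p = 0.13), and neither did the maturation marker Cd83 (adjusted p = 0.81) or the chemokine receptor Ccr7 (adjusted p = 0.080). Deficient library 23 was the lowest of the 3 in Cd40, Cd86 and Cd83, and without it 5 genes of this list fell.

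In antigen presentation, genes of the class I pathway were lower. Of 20 MHC class I pathway genes 11 fell, with a median of -0.46, while none fell against the first set and 2 fell without deficient library 23. Nlrc5, the transactivator of class I genes, differed by -1.32 ± 0.33, B2m by -0.48 ± 0.14 and Tap1 by -0.70 ± 0.15, while H2-K1 did not pass (-0.28 ± 0.11). Of 13 genes of the class II list none fell in edgeR, also at an unadjusted p under 0.05 or by DESeq2 (0 in each), and the median was -0.03. Cd74, the invariant chain, stood at 10895, 8967 and 12685 CPM against 8736 to 12614 CPM, with groups that overlapped throughout. The member that rose, Cd209a (1.47 ± 0.44), encodes a C-type lectin and no MHC protein. Whether class I and class II differ from each other was not tested.

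Other listed pathways held a few changes each. Of 7 Notch ligands and receptors 3 fell, all of them ligands: Dll4 stood at 0.124, 0.186 and 0.712 CPM against 0.745, 5.09, 5.30, 6.94 and 4.13 CPM (-3.72 ± 0.97, adjusted p = 0.011), beside Dll1 (-1.99 ± 0.48) and Jag1 (-1.57 ± 0.37). None of these passed against the first set, and without deficient library 23 just 1 fell. Of 16 inflammasome genes 8 fell, 4 of them against the first set, with Mefv, the pyrin gene (-1.81 ± 0.52), and Casp4, the sensor of cytosolic LPS (-1.21 ± 0.19). The largest difference of this list, -3.24, is the value given above for the cytokine gene Il1b. Nlrp3 was called lower over all libraries, against the first set and in the fit of the 8 libraries. Of 16 BCL2 family genes 6 fell, 4 of them against the first set, both killers and protectors: Bcl2l11, the proapoptotic BIM, stood at 249, 209 and 195 CPM against 365 to 764 CPM (-1.37 ± 0.18, adjusted p = 1.2e-05), and Bcl2l1, the antiapoptotic BCL-XL, was lower by a difference of -1.03 ± 0.26. Near-identical copies of Bcl2a1 share reads, so the value of Bcl2a1a (-0.81 ± 0.16) is uncertain. Of 20 glycolysis and HIF targets Adm and Hk2 fell, beside 7.03% of all genes. The median of this list was -0.01, and 0 fell against the first set or without deficient library 30. In cholesterol synthesis and uptake 3 of 23 rose, beside 5.8% of all genes, with Dhcr7 (1.18 ± 0.24) and Ebp (0.32 ± 0.11) among them. None of the 3 rose against the first set, and no gene of the list fell. No cell cycle gene of 27 passed in edgeR, although the median was 0.55 (0.22 against the first set) and 10 were higher and 1 lower at an unadjusted p under 0.05. DESeq2 called 1 higher, and without wild-type library 3 edgeR called 11 higher and 1 lower.

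Outside the lists the rule for named genes gave further large differences. U90926 had 26 counts in the deficient libraries, or 0.0353, 0.447 and 0 CPM, against 30.2, 5.92, 39.7, 29.3 and 11.1 CPM (-7.14 ± 0.94, adjusted p = 1.6e-05). Edn1, the vasoconstrictor endothelin-1, stood at 1.85, 3.32 and 3.19 CPM against 21.5 to 76 CPM (-3.99 ± 0.69). Adamts4, a protease of cartilage matrix, differed by -4.26 ± 0.83. Il1bos, antisense to Il1b, differed by -3.96 ± 0.47, but the strand setting of the counting is not given in the sources used here, so its reads cannot be told apart from those of Il1b.

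The largest rise among the named genes was in Tfcp2l1. This transcription factor, known from kidney and from pluripotent stem cells, stood at 150.1, 119.6 and 96 CPM in the deficient libraries and at 0.13, 0.22, 0.323, 0.102 and 0.204 CPM in the wild-type libraries. Its mean was 629-fold higher without MyD88 (9.30 ± 0.45, adjusted p = 7.9e-15). The same gap stood before LPS (9.84) and at 4 h (9.25). It lies on chromosome 1 at 118627945 to 118685168, away from Myd88 on chromosome 9. The other rises were smaller. Sgsh, a lysosomal sulfatase (2.02 ± 0.38), Cnr2, the cannabinoid receptor CB2 (1.84 ± 0.34), Lpar6, a lysophosphatidic acid receptor (1.59 ± 0.42), Cxxc5 (1.53 ± 0.31) and Tjp1, a tight junction protein (1.46 ± 0.39), passed over all libraries but not against the first set. Arl11 (1.79 ± 0.28), Tbc1d2 (1.59 ± 0.32) and Irf2bp2 (1.52 ± 0.24) passed there too. In Lpar6 the values were 86.2, 134 and 116 CPM against 72.8, 43.8, 17.2, 11.4 and 40.3 CPM, so that the wild-type sets lay well apart.

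The genes around Myd88 were set beside the rest. Within 20 Mb of Myd88 on chromosome 9, 34 of 249 tested genes passed, 19 higher and 15 lower, or 13.7%, beside 12.9% of 13900 other genes with a position. In the comparison with the first set 9 of the 249 (3.61%) passed, beside 1.86% of the others. Tgfbr2, a receptor of TGF-beta, stood at 115, 137 and 155 CPM against 47.6, 72.7, 42.7, 45.4 and 66.9 CPM (1.30 ± 0.17, adjusted p = 1.0e-05). Glb1, the lysosomal beta-galactosidase, stood at 30.4, 33.4 and 33.6 CPM against 43.2 to 54.6 CPM (-0.53 ± 0.10, adjusted p = 0.0011). Ccr9, a gut-homing chemokine receptor, was lower by a difference of -2.11 ± 0.44 at low levels. Before LPS these 3 genes and Xcr1 were 4 of the 8 genes other than Myd88 that differed between the genotypes. Xcr1, a marker of cross-presenting dendritic cells, differed by 2.75 at 0 h and did not pass at 2 h (0.33 ± 0.22).

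Few genes differed past the threshold before LPS. At 0 h 9 of 14475 genes (0.0622%) passed in either direction, Myd88 (-0.66), Cxcl1 (-3.21) and Tfcp2l1 among them. The median of the cytokine list was -0.44 at 0 h, -2.09 at 2 h and -3.36 at 4 h, and the number of its 25 genes that fell was 0, 18 and 22. In edgeR 5 of the 25 were lower at 0 h at an unadjusted p under 0.05. The interferon-stimulated genes had medians of -0.72, -1.74 and -0.91, with 0, 53 and 33 of 58 lower, and 32 of them were lower at 0 h at an unadjusted p under 0.05. Whether the difference at 2 h exceeded that at 0 h was tested gene by gene, and 64 genes (0.442%) passed, among them Ptgs2, Il6, Cxcl1, Nfkbiz, Socs3 and Zc3h12a. None of the 58 interferon-stimulated genes passed that edgeR test, and 28 had a more negative difference at 2 h at an unadjusted p under 0.05. At 4 h 2117 genes (14.6%) were lower and 1990 (13.7%) higher. Of the 1017 genes lower at 2 h, 825 (81.1%) were lower at 4 h, which is 38.97% of those lower at 4 h, and none was higher. Of the 839 higher genes 544 (64.8%) were higher at 4 h, or 27.3% of those at 4 h, and 1, Trerf1, was lower. The times are separate libraries in 1 fit and share the cohort numbers. Ifit1, which differed by -2.32 at 2 h, differed by -0.998 at 4 h and did not pass there (adjusted p = 0.13), while Cxcl1 differed by -9.07.

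**Figure D4:**
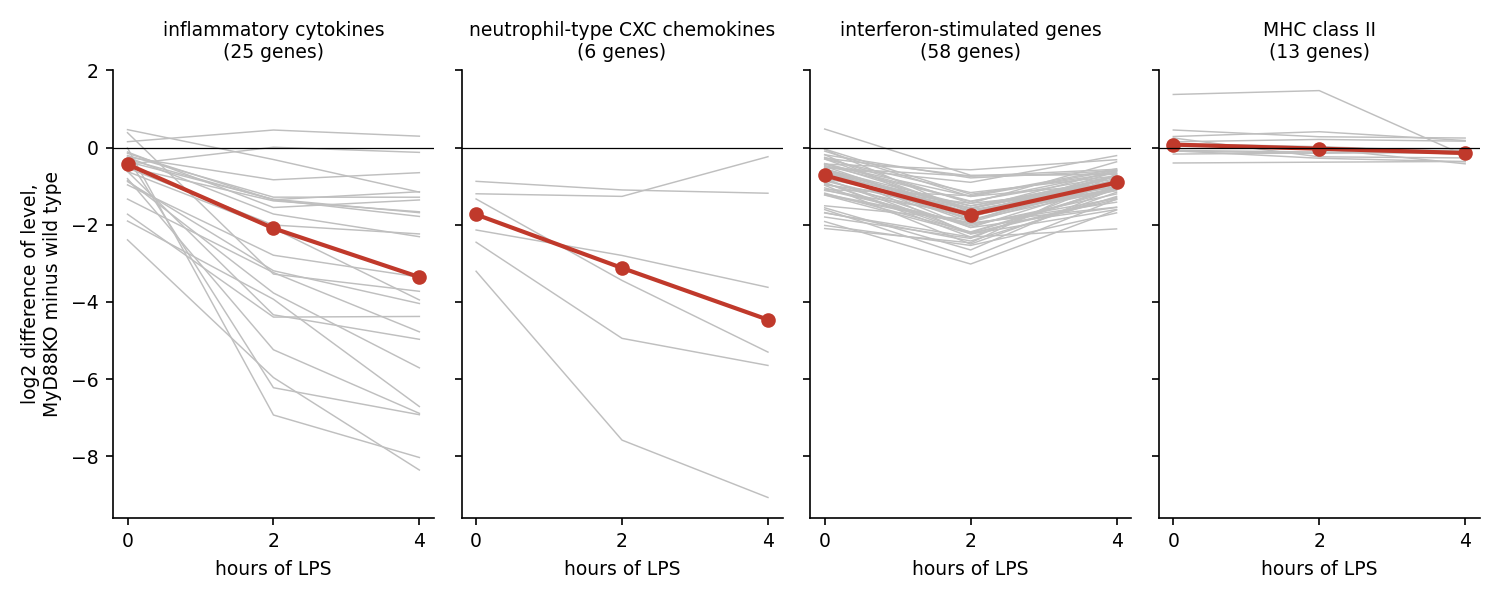
Log2 difference, deficient minus wild type, of each member of 4 lists at 0, 2 and 4 h of LPS (thin lines), with the list's median in red. The cytokine median goes from -0.44 to -2.09 and -3.36, that of the interferon-stimulated genes from -0.72 to -1.74 and -0.91, and that of the MHC class II list stays near 0.

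Transposable elements are interspersed repeats left by elements that once copied themselves. LTR elements derive from retroviruses, LINEs and SINEs from retrotransposons without LTRs. Dendritic cells keep most of them silent through heterochromatin. They took 4.23 to 4.78% of all counts in the deficient and 3.55 to 5.50% in the wild-type libraries. The means were 4.48 ± 0.276% (SD, n = 3) and 4.84 ± 0.805% (SD, n = 5), and the difference of -0.359 percentage points was within the spread (2-sided exact permutation test, p = 0.50, BH-adjusted 0.62 over 5 shares, with 0.018 as the smallest p this design allows). Against libraries 3 and 13 alone the difference was 0.412 points, of the opposite sign (exact permutation p = 0.60).

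Of 945 subfamilies tested 152 (16.1%) were lower and 5 (0.529%) higher, with a median of -0.28. The balance differed between the wild-type sets: against the first set 3 of 947 (0.317%) were lower and 1 (0.106%) higher, and the median was 0.05. The medians of the classes were -0.35 for LINE, -0.22 for SINE, -0.28 for LTR and -0.23 for DNA elements, and 0.00, 0.05, 0.07 and 0.07 against the first set. The share of repeats was 5.12 to 5.50% in the second set and 3.55 and 4.58% in the first. Scaled by the repeat counts themselves, 84 subfamilies were lower and 40 higher.

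The subfamilies that rose most were those of murine leukemia virus, a group of endogenous retroviruses of the mouse. RLTR4_MM-int, the internal part of 1 such family, stood at 1809, 932 and 929 CPM in the deficient libraries, at 204 and 259 CPM in the first wild-type set and at 413, 267 and 502 CPM in the second (1.89 ± 0.38, adjusted p = 0.0013). Every deficient library was above every wild-type library, and the difference against the first set was 2.4 (adjusted p = 0.022). Its LTR, RLTR4_Mm, stood at 231, 137 and 149.98 CPM against 57.01 to 92.3 CPM (1.35 ± 0.28), and did not pass against the first set (adjusted p = 0.053). MuLV-int stood at 948, 577 and 582 CPM against 282 to 518 CPM (1.03 ± 0.26), with an adjusted p of 0.069 against the first set. Without its 10 copies with most counts MuLV-int differed by 0.75 and did not pass in edgeR (adjusted p = 0.13). RLTR4_MM-int (1.53) and RLTR4_Mm (1.44) still passed without theirs. Near-identical copies share reads, so that counts of single copies are uncertain. Of 432 copies of RLTR4_MM-int 85 passed the count filter, which a copy with almost no wild-type counts could pass through the deficient libraries, and of these 29 rose and none fell. Of the 29, 16 were also higher before LPS. The copy numbered 4334319 had 13531, 2848 and 2850 counts in the deficient libraries and 8, 3, 0, 4 and 9 in the wild-type libraries. Deficient library 19 was well above the other 2 in this copy and in the family.

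Among the subfamilies that fell, ERVB2_1-I_MM-int (-2.64 ± 0.78) and ERVB5_1-I_MM-int (-2.60 ± 0.61) did not pass against the first set. MamRep38, a DNA element, was the only 1 of the 8 largest falls that did. It stood at 21.4, 13.4 and 17.6 CPM against 28.8, 73, 112, 127 and 55.1 CPM (-2.18 ± 0.32, adjusted p = 0.00012), or -1.54 against the first set (adjusted p = 0.0097). Without the 10 of its 212 copies with most counts the difference was -0.34 and did not pass (adjusted p = 0.77). L1Md_Gf, a young LINE-1 subfamily, stood at 5.26, 4.62 and 5.07 CPM against 4.49, 10.9, 35.5, 39.4 and 15.2 CPM (-2.08 ± 0.49), so that library 3 lay below all deficient libraries. Without its 10 copies with most counts the difference was -0.60 (adjusted p = 0.46). MMVL30-int, the retrovirus-like VL30 family and named after its values were seen, stood at 855, 825 and 529 CPM against 1372 to 3557 CPM (-1.63 ± 0.33). It did not overlap, and its difference against the first set was -0.99 (adjusted p = 0.13). Some falls did not rest on the 10 copies with most counts. Without them MMVL30-int (-1.43, adjusted p = 0.0038), MuRRS-int (-1.885, adjusted p = 0.00021) and RLTR6_Mm (-1.46, adjusted p = 0.0047) still passed in edgeR. Against the first set MuRRS-int (adjusted p = 0.053) and RLTR6_Mm (adjusted p = 0.27) did not pass either.

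Genes known to restrict or silence such elements were read beside them. Of 16 restriction factors 9 fell and 1 rose, with a median of -0.65. Most of these 9 are interferon-stimulated, such as Mx2 and Trim30a (-1.70 ± 0.28), the 2 that also passed against the first set, and without wild-type library 36 just 5 fell. Of 25 heterochromatin and silencing genes 3 rose and 2 fell, with a median of 0.27. Over all genes 5.8% were higher and 7.03% lower, so such small counts say little about the list. Dnmt1, the maintenance DNA methyltransferase, stood at 86, 113 and 81.3 CPM against 38.2 to 68.2 CPM (0.85 ± 0.20, adjusted p = 0.0060). Trim28, the corepressor KAP1 (0.54 ± 0.12), and Setdb1, its histone methyltransferase (0.38 ± 0.10), were higher as well, but none of the 3 passed against the first set. Daxx, a histone chaperone, was lower (-1.37 ± 0.21, adjusted p = 9.2e-05), also against the first set (-0.90), and Morc3 was lower by a difference of -0.74 ± 0.16.

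Of 64924 single copies 2063 (3.18%) were lower and 592 (0.912%) higher, and against the first set 163 (0.251%) and 197 (0.303%). Before LPS 30 copies (0.0462%) were lower and 72 (0.111%) higher. Of the 2655 called copies 1534 lay in 138 runs of at least 5 called copies with nearby running numbers. The share of all 64924 tested copies that lie as close together is not given here. The number therefore does not show that called copies cluster more than tested ones. The run from 210724 to 210745 held 19 called copies, all higher, with a median of 8.55 at 2 h and 8.96 at 0 h. An L1M4 copy in it, 210727, had 215, 181 and 122 counts in the deficient libraries and 0 in all 5 wild-type libraries. In the opposite direction, L1Md_F2 copy 4676808 had 0, 0 and 1 counts in the deficient and 119 to 224 in the wild-type libraries. Running numbers follow the order of the repeat annotation and give no coordinates here.

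**Figure D5:**
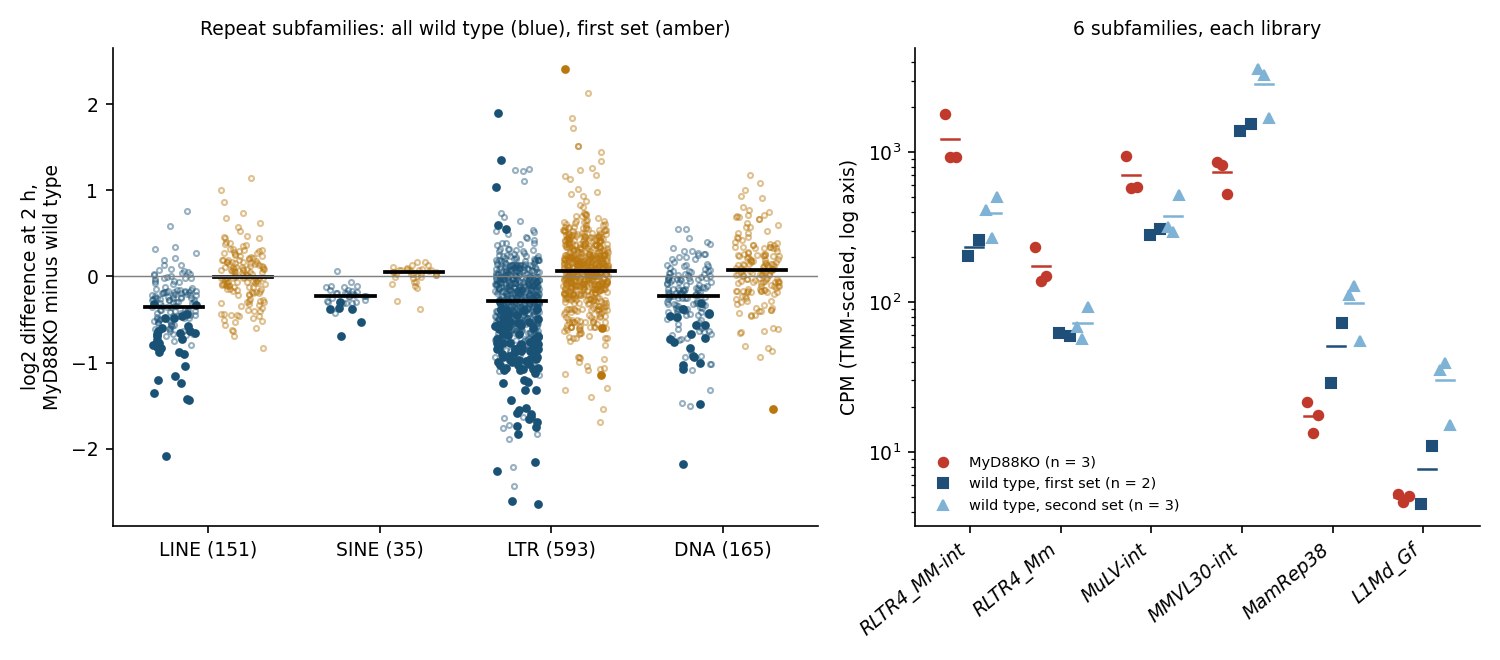
Left, log2 difference of the repeat subfamilies by class, against all wild-type libraries (blue) and against the first set alone (amber), with medians as bars. Right, CPM per library on a log axis for 6 subfamilies, with symbols as in the other plots; the class medians lie at -0.35 to -0.22 in blue and near 0 in amber.

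The labelled cell type was checked against its markers. Itgax, the dendritic cell integrin CD11c, stood at 749.7, 595 and 471 CPM against 496 to 864 CPM, and Zbtb46, a transcription factor of conventional dendritic cells, at 51.3, 40.8 and 62.2 CPM against 38.5 to 68.2 CPM. Of 16 conventional dendritic cell markers Cd209a rose (1.48 ± 0.44) and Irf8 fell (-0.99 ± 0.26). Of 11 markers of dendritic and myeloid identity, Irf8 and Id2 (-0.68 ± 0.16) fell and Csf2rb rose (0.41 ± 0.13). Of 10 plasmacytoid dendritic cell markers 3 fell, with a median of -0.69: Ccr9 (-2.11 ± 0.44), Tcf4 (-0.81 ± 0.23) and Bst2 (-0.74 ± 0.22), the last also an interferon-stimulated gene. By sign 8 of the 10 were lower and 2 higher, up to 2.32. No riser passed, and 1 was higher at an unadjusted p under 0.05 in edgeR. Ccr9 lies within 20 Mb of Myd88 and already differed before LPS. The summed level of the 10 markers was 282 to 331 CPM in deficient and 334 to 488 CPM in wild-type libraries. None of the markers of these 3 lists passed against the first set, and the part of such cells in the results above was not tested. Further, none of 15 macrophage and 13 granulocyte markers passed in edgeR, with 2 and 0 of them at an unadjusted p under 0.05 and 0 and 0 called by DESeq2. The summed level of the B cell markers was 0.62 to 10.01 CPM in deficient and 1.31 to 7.24 CPM in wild-type libraries, and that of T and NK cell markers 1.64 to 16.6 and 1.35 to 20.9 CPM. Of 9 fibroblast markers 1 passed, Pdgfrb (-1.05 ± 0.35), and their sum was 5.63 to 8.81 against 4.94 to 14.96 CPM. The mast cell and basophil markers summed to 77.97 to 119 CPM in deficient and 78.8 to 135 CPM in wild-type libraries, and the erythroid and megakaryocyte markers to 27.3 to 66.9 and 50.2 to 168 CPM; none of their 13 tested members passed in edgeR, with 1 of them at an unadjusted p under 0.05 and 1 called by DESeq2. Prf1, Mcpt4 and Hbb-bs, single members of the T and NK, mast cell and erythroid lists, had no count in any of the 8 libraries.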

How the data were processed

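Per the labels, polyadenylated RNA of LPS-treated dendritic cells was made into TruSeq Stranded libraries. The authors deposited raw read counts per gene and per repeat copy. The submitters' processing notes name STAR, HOMER, DESeq2 and mm10 without roles, and the strand setting and the handling of reads that map to several places are not given in the sources used here. From the counts, edgeR 4.0.16 (R 4.3.3) was run with filterByExpr, TMM scaling and quasi-likelihood F tests, with 1 term per group over 35 libraries. SEs were computed from the log2 difference and F. Repeats were summed by subfamily, or kept as copies with at least 10 counts in at least 3 libraries, and scaled by the gene totals. P-values were adjusted by Benjamini-Hochberg over all features tested. The scripts were tested on simulated data. The comparison and the gene lists were chosen with earlier results of these data known. Named from each list were up to 5 members past the threshold with the largest difference and up to 3 that did not pass with the highest mean, and over all genes the 12 largest rises and falls whose groups did not overlap and whose higher group reached 5 CPM on average. Others are named as chosen after their values were seen or as examples of their list. Genes of the lists absent from the table were not analysed here, and a few results are not reported here. Alternatives were DESeq2 1.42.0, other filters and scalings, left-out libraries, a term for the library set and blocks for the cohort.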

Additional observations from a re-analysis of the deposited data

Results flagged for a closer look

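For each of 261 groups of 5 wild-type values of the named genes, a library was marked where its gap to the nearest other library was above Dixon's critical value, which chance gives in about 1 in 20 groups; 13 were found. Library 3 stood apart 8 times. It was high in Arl11 (7.001 CPM against 3.73 to 4.17 in the others), Irf2bp2 (44.4 CPM against 15.01 to 23.5), Col1a2 (3.19 CPM against 0.0807 to 0.790) and Sec22c (5.70 CPM against 3.56 to 3.95). It was low in Bcl2l1 (307 CPM against 465 to 523), Cish (159.1 CPM against 219 to 241), Dusp2 (39.5 CPM against 91.3 to 108) and Nfkbie (244 CPM against 340 to 368).

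Library 38 stood apart in Cd4 (0.586 CPM against 0.441 to 0.457), Cd86 (604 CPM against 437 to 474) and Nradd (0.662 CPM against 0.9003 to 0.969). Library 13 stood apart in Setdb1 (37.0 CPM against 25.7 to 28.0) and Tjp1 (8.30 CPM against 2.27 to 3.79).

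In 13 named genes the difference between genotypes at 2 h was not that at 0 h, by the test of the difference itself in edgeR with adjustment over all genes. The 2 h difference was lower than the 0 h one by -4.43 in Ptgs2 (adjusted p = 0.00054), -4.38 in Cxcl1, -3.71 in Il6, -3.65 in Ccl3, -3.36 in Il1bos, -2.67 in Socs3, -2.58 in Nfkbiz, -2.26 in Slamf1, -1.79 in Socs1, -1.70 in Zc3h12a, -1.32 in Bcl2l11 and -0.88 in Myd88. It was higher by 0.80 in 2010315B03Rik, a gene on chromosome 9 near Myd88.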

How the results depend on the processing

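The counts of calls depended on the libraries more than on the tool. Of 1856 genes called, 110 were called with only the 8 libraries in the fit, 269 against the first wild-type set alone, 1028 with the library set as a term and 3620 without TMM, of which 2967 were higher and 653 lower. Leaving out 1 library at a time gave 883 to 2669 genes, with 883 without deficient library 23, 1133 without wild-type library 36 and 1145 without library 37. DESeq2 called 2343. Of 157 subfamilies, 3 were called with the 8 libraries alone, 4 against the first set, 56 with the set as a term, 370 with wild-type libraries of a cohort summed, 8 without the 10 copies with most counts and 255 by DESeq2. Leaving out a library gave 50 to 395, with 50 without deficient library 23, 59 without deficient library 30, 73 without wild-type library 37, 77 without library 36 and 395 without library 3. Scaled by the repeat counts, 40 were higher and 84 lower. Of 2655 copies, 216 were called with the 8 libraries alone, 360 against the first set, 1059 with the set as a term, 5015 with cohorts summed and 4035 by DESeq2. Leaving out a library gave 541 without deficient library 23, 867 without 30, 1634 without 19, 1134 without wild-type library 37, 1233 without 36 and 5745 without 3. The difference in the repeat share ran from -0.680 to -0.192 points when 1 library was left out. Without the 10 copies with most counts, ERVB5_1-I_MM-int differed by 0.092 and RLTR44-int by -0.39, of opposite sign to the full counts. The cause of these shifts was not tested.

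Of the 158 named genes that passed, 158 passed by DESeq2, 153 with cohorts summed, 148 without a filter, 144 without TMM, 108 with the set as a term, 53 against the first set and 34 in the fit of the 8 libraries. Leaving out 1 library kept 104 to 155.

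The labels do not say what a cohort number marks. Over 5 same-numbered pairs of the 2 genotypes the correlation of the deviations from the group means was -0.126 for libraries 19 and 3 and 0.231 to 0.745 for the other 4, with a mean of 0.325, beside -0.587 to 0.427 and a mean of -0.167 for 10 other pairs. As 1 pair was below 0, the cohorts were not treated as paired, although most pairs and the Xist levels went together by cohort. With the cohort as a replicate block, 2557 genes, 175 subfamilies and 3559 copies were called. With a replicate block of cohort and set, which was chosen after seeing the data, 2308 genes, 77 subfamilies and 2004 copies were called. The numbers of genes per list against the first set and in the fit of 8 libraries were also chosen after seeing the data.

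Depth limits genes such as Il12a and Csf3, with 3 and 12 counts in all deficient libraries together, and single repeat copies, where counts of 0 are frequent.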
